A study of Mus musculus with 6 samples.

Results

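Transcripts of 10 genes that govern the G1 phase of the cell cycle were examined in mouse bone marrow cells with and without Spred1. They are the D cyclins Ccnd1, Ccnd2 and Ccnd3, the E cyclins Ccne1 and Ccne2, the kinases Cdk4 and Cdk6, and the pocket proteins Rb1, Rbl1 and Rbl2. They were chosen by name: every probe other than controls whose gene name on the array equals one of these symbols was taken. All 10 genes were on the array among 34650 gene names, under 15 of its 55681 probes, and 9 of the 10 genes were bright enough to be tested among 19610 genes. The 6 samples were bone marrow cells sorted as c-Kit+ and Sca-1+ but CD48- and lineage marker-, which holds the stem cells and earliest progenitors of blood. Of these, 3 were wild type (WT) and 3 lacked Spred1 (KO), each on 1 array. Strain C57BL/6 is given for both genotypes, with no age, sex or further allele stated. The Spred1 protein restrains the Ras-ERK pathway, and the study set transcripts with and without it against each other. The labels do not say whether the 3 samples of a genotype came from separate animals, so p-values measure only the spread between these samples, which may be technical.

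Cells commit to division late in G1. Growth factor signals, in part through ERK, raise D cyclins, which activate Cdk4 and Cdk6. These kinases phosphorylate the retinoblastoma protein Rb1 and its relatives p107 (Rbl1) and p130 (Rbl2), the pocket proteins, which otherwise hold E2F transcription factors in check. Freed E2F switches on genes of S phase and also Ccne1, Ccne2 and Rbl1 itself, and cyclin E with Cdk2 then completes the phosphorylation. Haematopoietic stem cells are mostly quiescent, and Cdk6 is known for controlling how fast they leave that state.

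Each gene was read by 60-base probes, whose sequences differ in composition, so that signals of different probes are not comparable as levels. The first 30 bases of the probes on which the results below rest are shown here 5′ to 3′ on the transcript strand, with G and C in capitals.
Cdk6, chr5:3522106-3522165: tCCtatCtttaaGtGtatGttGtCaGtGta
Ccnd2, chr6:127098696-127098755: aaGaGaCCatCCCGCtGaCtGCGGaaaaGC
Ccnd1, chr7:152116202-152116261: ttaatCtGttaGGttCtaGtGttCCGtCtt
Rbl1 probe 1, chr2:156972143-156972202: aCaCtGGaGGtttaGCCttCtGaaGaatCa
Rbl1 probe 2, chr2:157000761-157000820: CCGaGaGGaattGGaGGaGGGGaaaaCttG
Ccne1 probe 1, chr7:38882937-38882960: GCatGtCCtGCCttCatGaaCtCttatttt
Ccne2, chr4:11131423-11131482: ttataaaCtattGttaaGatatGaaGtttt
The coordinates refer to build mm9 and were copied from the array files; for Ccne1 probe 1 the files place only part of the probe. Whether a probe lies in coding sequence or in an untranslated region was not analysed here. Cdk4 had 3 probes, Ccnd3, Ccne1 and Rbl1 had 2 each, and the others had 1. The Rb1 probe was spotted 10 times on each array, and its spots had an SD of 0.045 to 0.097 on the log2 scale within an array.

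Values are given on a log2 scale whose 0 is the 75th percentile of each array's signals. The percentile lay between 346 and 417 intensity units, 52.3% to 53.4% of spots were well above background on each array, and no spot was saturated. Pairs of arrays correlated across genes at r of 0.988 to 0.995; genes are not independent replicates. There were 2 slides, each scanned on its own: slide 1 held replicates 1 and 2 of both genotypes and slide 2 held replicate 3 of both. The gate genes were well above background on all arrays, at 4.89 to 5.32 for Kit, 4.22 to 4.76 for Ly6a, which encodes Sca-1, and -0.67 to 0.20 for Cd48. WT replicate 1 stood apart in markers of other cells: the summed log2 level of 8 neutrophil markers was 6.54 on it and 8.33 to 8.97 elsewhere, and that of 4 erythroid markers was 3.53 against 4.54 to 5.58. The brightest of these were S100a9 and Hba-a1, and Klf1 was not well above background on all arrays of either genotype. Epor, also among the 4 erythroid markers, did not follow its sum. It read -0.40 on WT replicate 1, inside the -0.77 to -0.15 of the other arrays. All 7 monocyte markers on the array were measured, with Lyz2 the brightest, and summed to 2.83 on WT replicate 1 and 3.07 to 3.45 elsewhere. Lyz2 weighs most in that sum and was the only one of the 7 with a lower value in KO (-0.36 ± 0.17 SE). The other 6 had higher values, and the median of the 7 was 0.35, with Emr1 at 0.76 ± 0.25 SE and no overlap (limma adjusted p = 0.374). The part of these markers in the results below was not tested. The B cell markers Ebf1 and Pax5 and the T cell markers Cd3d, Cd3g and Cd8a were not well above background on all arrays of either genotype, while summed levels of 3 measured B cell markers and of 3 measured T and NK cell markers ran from 3.30 to 3.58 and from 3.18 to 3.45. The 3 Spred1 probes differed by -0.14 ± 0.10, -0.98 ± 0.09 and 2.44 ± 0.16 (log2, SE), of which the last passed (limma adjusted p = 0.0128 over probes); which exons the knockout removes is not known here, so they do not check the labels. In bulk samples such as these, fewer cells with a transcript and less transcript per cell cannot be told apart.

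None of the 9 tested G1 genes passed the test between genotypes, while 4 of all 19610 genes did, 0.0204%, or 0.0102% higher and 0.0102% lower (limma, adjusted p under 0.05). None of the 9 differed by over 1.5-fold either, where 3.38% of all genes did. At an unadjusted p under 0.05, 1 of the 9 counted, Cdk6, against 12.2% of all genes, of which 5.24% were lower and 6.96% higher. The 3 KO arrays lay wholly on one side of the 3 WT arrays for 2 of the 9, Cdk6 and Ccnd2, both lower in KO, against 19.5% of all genes in either direction, 10.2% lower and 9.37% higher. Values were lower in KO for 7 of the 9 genes, against 51.7% of all genes, and the median difference of the 9 was -0.09 against -0.01 over all genes. Within slide 1, which has 2 arrays per genotype, 5 of the 9 had lower values and the median was -0.06. Without WT replicate 1 it was 7 of the 9 and without WT replicate 2 it was 8, with medians of -0.10 and -0.18. These shares lie near those of the whole array or rest on few genes.

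**Figure D1:**
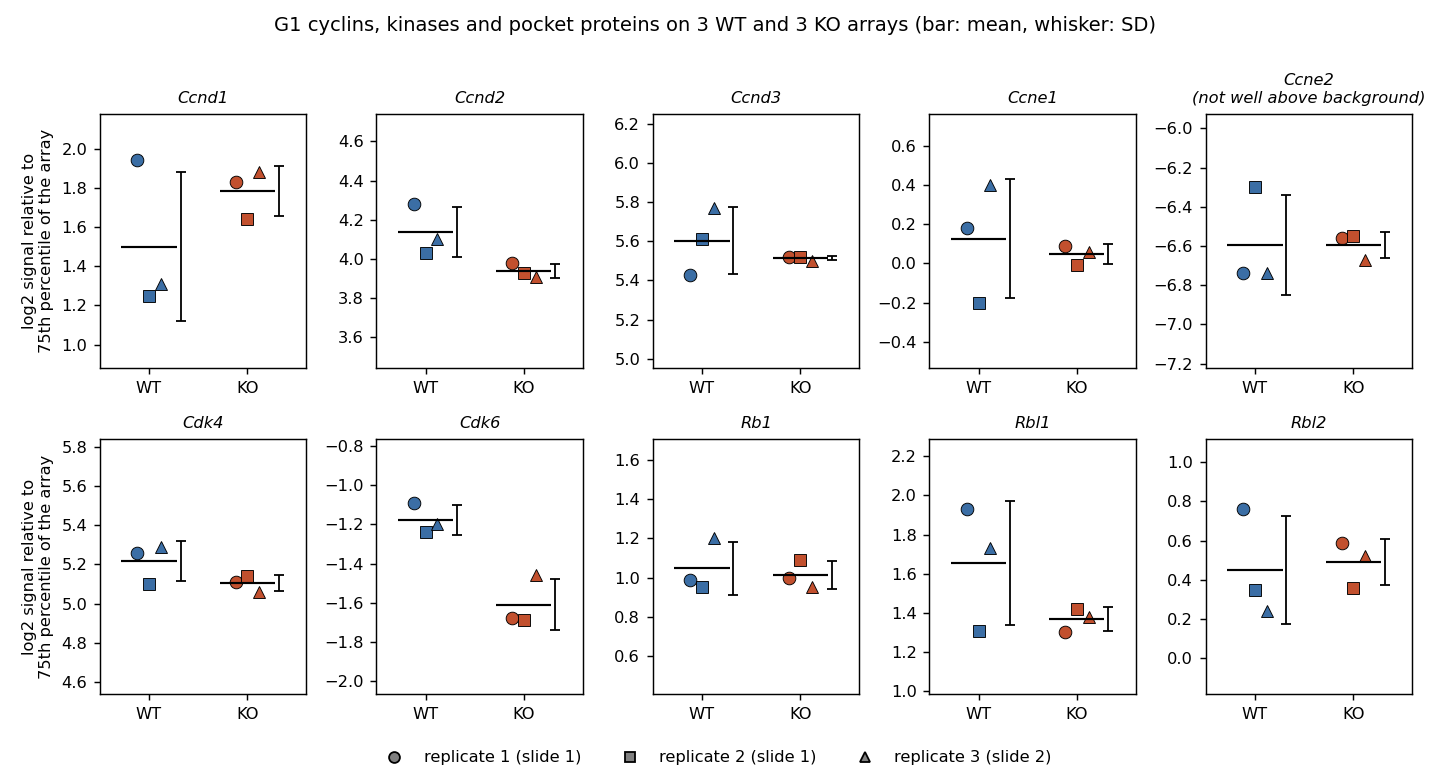
Log2 signal of the 10 genes on each array, relative to the 75th percentile of the array (vertical axis), for WT (blue) and KO (red); symbols mark replicate and slide, bars the mean and whiskers the SD. Cdk6 and Ccnd2 do not overlap between genotypes, and most of the others spread more widely in WT than in KO.

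Of the kinases, Cdk6 showed the largest difference of the 9 genes. It encodes the kinase that pairs with D cyclins alongside Cdk4 and is abundant in blood progenitors. Its signal was -1.09, -1.24 and -1.20 on the WT arrays and -1.68, -1.69 and -1.46 on the KO arrays. Every KO array was below every WT array. The mean stood at 74.0% of WT (log2 difference -0.43 ± 0.10 SE, 95% interval -0.67 to -0.20), and the difference did not pass over all genes (limma adjusted p = 0.363). The exact two-sided permutation p was 0.1, the smallest that 3 against 3 arrays allow, and 92.7% of all genes differed by less. It was -0.52 within slide 1 and -0.26 between the single arrays of slide 2, and -0.25 when the background was corrected by normexp in place of the scanner software's method.

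Cdk4, the other kinase of D cyclins, was read by 3 probes that all measured slightly lower in KO. The brightest read 5.26, 5.10 and 5.29 in WT and 5.11, 5.14 and 5.06 in KO, with overlap. Its difference was -0.12 ± 0.087 SE (95% interval -0.33 to 0.09, limma adjusted p = 0.575). The next probe did not overlap between genotypes, with 4.24, 4.09 and 4.27 in WT and 4.08, 4.03 and 4.05 in KO, a difference of -0.15 ± 0.09 SE (limma adjusted p = 0.54 over 27808 probes). The 3rd probe, at -0.26 ± 0.14 SE, overlapped (limma adjusted p = 0.487 over the same probes). None of the 13 tested probes of the G1 genes passed, where 0.0324% of all probes did, and only the Cdk6 probe had an unadjusted p under 0.05, where 11.5% did. The genotypes did not overlap for 3 of the 13, of Ccnd2, Cdk4 and Cdk6, against 18.7% of all probes.

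Among the D cyclins, Ccnd2 was lower in KO and Ccnd1 leaned the other way, and neither passed. Ccnd2 encodes the D cyclin known for its response to cytokines in blood cells. It read 4.28, 4.03 and 4.10 in WT and 3.98, 3.93 and 3.91 in KO. All KO arrays lay below all WT arrays, and the nearest values of the genotypes were 4.03 and 3.98. The KO mean was 87.3% of WT (-0.20 ± 0.09 SE, 95% interval -0.42 to 0.03, limma adjusted p = 0.445; exact two-sided permutation p = 0.1). The difference was -0.20 within slide 1 and -0.18 on slide 2, and -0.12 without WT replicate 1.

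Ccnd1 encodes the D cyclin best known as a target of Ras-ERK signalling. Its signal was 1.94, 1.25 and 1.31 in WT and 1.83, 1.64 and 1.88 in KO. The KO arrays sat close together, above WT replicates 2 and 3 and below WT replicate 1. The difference was 0.28 ± 0.19 SE (95% interval -0.18 to 0.74, limma adjusted p = 0.551; exact two-sided permutation p = 0.4). It was 0.14 within slide 1 and 0.57 on slide 2, 0.50 without WT replicate 1 (limma adjusted p = 0.576), 0.15 without WT replicate 2 and 0.19 without WT replicate 3. WT replicate 1 stood apart in markers of other cells, as given above, and their part in the Ccnd1 value was not tested. The interval of the full comparison holds 0 as well as values above 0.44, which is the 95th percentile of the differences of all genes.

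Ccnd3, the D cyclin required for the expansion of several blood lineages, differed little. Its brightest probe read 5.43, 5.61 and 5.77 in WT and 5.52, 5.52 and 5.50 in KO, with the KO arrays inside the WT range. The difference was -0.09 ± 0.11 SE (limma adjusted p = 0.719), with 0.0009 within slide 1 and -0.28 on slide 2. The second probe measured -0.16 ± 0.10 SE (limma adjusted p = 0.558 over all probes tested) and overlapped too.

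**Figure D2:**
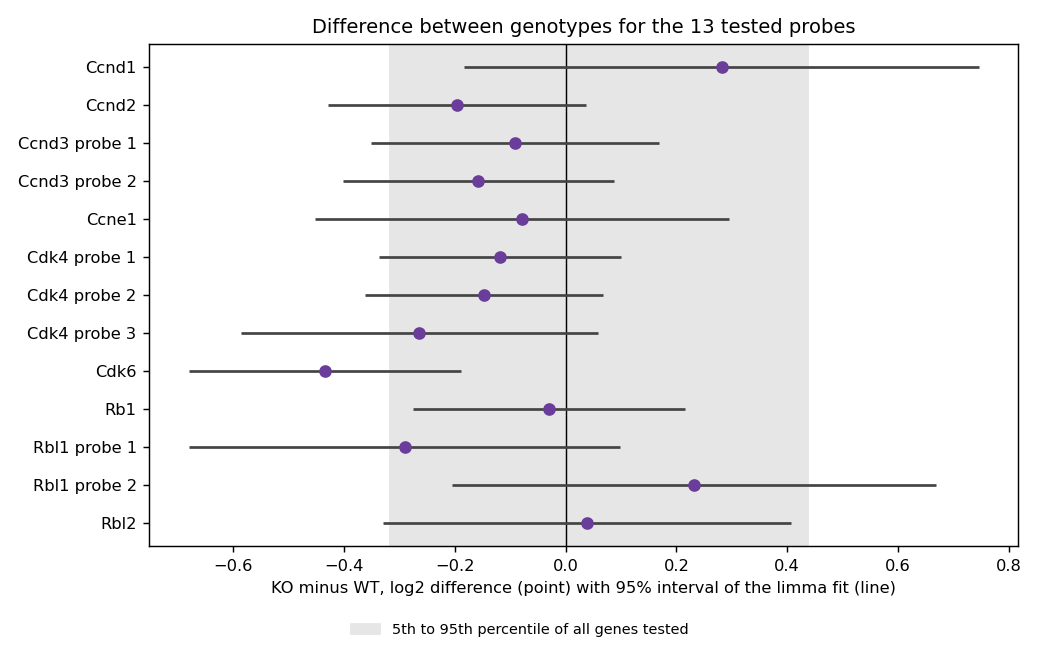
KO minus WT log2 difference of each tested probe of the G1 genes (points) with the 95% interval of the fit over all probes (lines), beside the range that holds the middle 90% of all genes (grey, -0.32 to 0.44). Only the Cdk6 interval leaves out 0, and the probes of Rbl1 point in opposite directions.

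The E cyclins, which activate Cdk2 at the G1/S transition, gave 1 measured gene. Ccne1 read 0.18, -0.20 and 0.40 in WT and 0.09, -0.01 and 0.06 in KO. The KO arrays lay within the WT range, and the difference was -0.08 ± 0.15 SE (95% interval -0.45 to 0.29, limma adjusted p = 0.836). A second Ccne1 probe was not tested, since it cleared the background on just 1 WT and 2 KO arrays. Ccne2 was well above background on 0 of the 6 arrays, at -6.74 to -6.30, and has only an upper bound there. Its probe, shown above, holds 15% G and C, against a median of 43.3% over all probes. Of the 27 probes on the array with no more G and C than that, 2 were bright enough to be tested, against 49.9% of all probes. The part of probe composition in the Ccne2 reading was not tested.

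The pocket proteins Rb1 and Rbl2 hardly differed. Rb1, which restrains E2F activators, read 0.99, 0.95 and 1.2 in WT and 1.0, 1.09 and 0.95 in KO, a difference of -0.03 ± 0.10 SE (95% interval -0.27 to 0.21, limma adjusted p = 0.91). The SD between single spots, given above, lay below that between WT arrays (0.14). On KO replicates 2 and 3 it reached 0.070 and 0.097, against 0.069 between KO arrays. The array values are means of 9 or 10 spots, which vary less than single spots, so these SDs are not directly comparable. Rbl2, whose product p130 is the pocket protein typical of resting cells, read 0.76, 0.35 and 0.24 in WT and 0.59, 0.36 and 0.52 in KO. The difference was 0.04 ± 0.15 SE (95% interval -0.33 to 0.40, limma adjusted p = 0.925). Both genes overlapped between genotypes.

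Rbl1, whose product p107 accumulates in cycling cells, was the gene whose probes diverged. The brighter probe, annotated to transcript variant 1, read 1.93, 1.31 and 1.73 in WT and 1.30, 1.42 and 1.38 in KO. WT replicate 2 lay among the KO arrays, and the difference was -0.29 ± 0.16 SE (95% interval -0.67 to 0.09, limma adjusted p = 0.486). It was -0.46 without WT replicate 2 and -0.15 without WT replicate 1. The probe annotated to transcript variant 2 read -1.77, -2.16 and -1.59 in WT and -1.46, -1.88 and -1.49 in KO, a difference of 0.23 ± 0.18 SE (limma adjusted p = 0.618 over all probes tested). The mean of both probes left -0.03 ± 0.15 SE.

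Within each array, where the scaling cancels, the variant 1 probe exceeded the variant 2 probe by 3.69, 3.47 and 3.32 in WT and by 2.76, 3.30 and 2.87 in KO. Every KO array was below every WT array, though KO replicate 2 came close to WT replicate 3. The mean gap was 3.50 ± 0.19 (SD, n = 3) in WT and 2.98 ± 0.29 (SD, n = 3) in KO, a difference of -0.52. The exact two-sided permutation p was 0.1, the smallest possible, and 0.4 after Benjamini-Hochberg adjustment over the 4 probe pairs of the G1 genes. Among the 5595 genes with more than 1 tested probe, the brightest and the next probe separated the genotypes for 14.2%, and with the KO gap lower for 6.54%. The gap shifted by over 0.5 for 5.4%, and 95.3% shifted less than Rbl1. The shift was -0.55 within slide 1 and -0.46 on slide 2, and -0.41 to -0.69 with each array left out; under quantile normalization it was -0.44 and the groups overlapped. This pair was singled out after its values were seen. The other 3 pairs, of Ccnd3 and Cdk4, shifted by 0.03 to 0.15 and overlapped.

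**Figure D3:**
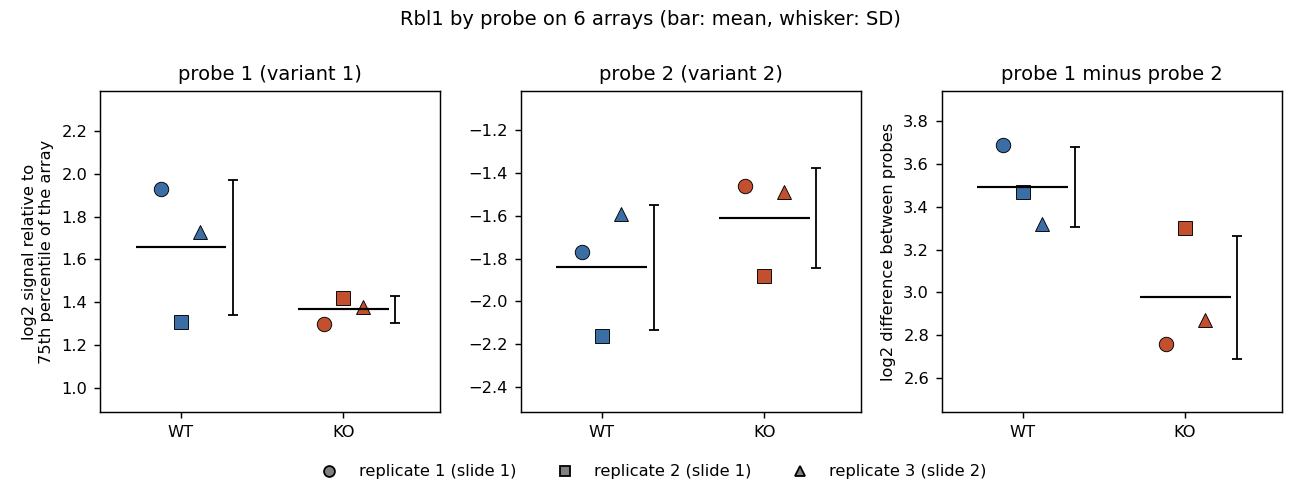
Rbl1 on the 6 arrays: log2 signal of the variant 1 probe (left) and of the variant 2 probe (middle), and the difference between them on the same array (right); symbols mark replicate and slide, bars the mean, whiskers the SD. Each probe overlaps between genotypes, while the gap between probes is 3.32 to 3.69 in WT and 2.76 to 3.30 in KO.

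Among the 6 genes with a promoter at hand, Rbl1 is also the one whose window held a match to the E2F consensus searched. RefSeq promoters (GRCm38.p6, 250 bases before to 50 after each start) were at hand for 6 of the 10 genes. Ccnd1, Ccnd2, Ccne2 and Rb1 had none and were not searched. The motifs TTTCCCGC, TTTGGCGC, TTTCGCGC and TTTGCCGC were searched on both strands. Of 32851 windows of 300 bases, 2.26% held one, and of the 7 windows of the G1 genes 1 did. Of the Rbl1 window, chr2:157204485-157204784 on the minus strand, the 120 bases before the start are printed with the match in capitals, which begins at position -18 from the start.
Rbl1: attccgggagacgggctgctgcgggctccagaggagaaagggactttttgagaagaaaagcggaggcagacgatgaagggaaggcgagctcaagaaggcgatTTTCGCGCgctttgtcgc
A match is a description of these letters and not a measured binding site.

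The WT arrays spread more than the KO arrays for most of the G1 genes. The SD was larger in WT for 8 of the 9 tested genes, all but Cdk6, against 53.3% of all genes. It was 0.17 against 0.014 for Ccnd3, 0.30 against 0.052 for Ccne1, 0.32 against 0.063 for Rbl1 and 0.38 against 0.12 for Ccnd1. WT replicate 2 was the lowest WT array for 7 of the 9, against 34.9% of all genes. WT replicate 1 was the highest for 5, Ccnd1, Ccnd2, Cdk6, Rbl1 and Rbl2, against 32.1%, and stood clear of both other WT arrays for Ccnd1 and Rbl2. WT replicate 1 is the array with low summed levels of neutrophil and erythroid markers. WT replicate 2 was low in proliferation markers, whose median on it was -0.48 relative to the WT mean, where WT replicates 1 and 3 had 0.15 and 0.31 and the KO arrays -0.12 to 0.10. The part of either marker group in the spread was not tested.

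Around the G1 genes, 66 of 71 listed regulators and targets could be tested and none passed in either direction. Values were lower in KO for 45 of the 66, with a median of -0.10, against 51.7% and -0.01 over all genes. The median was -0.22 without WT replicate 2, -0.06 without WT replicate 1 and -0.05 without WT replicate 3. Leaving out single arrays or changing the processing gave 38 to 54 lower, the fewest without WT replicate 3 and the most without WT replicate 2, whose low proliferation markers are given above. Within slide 1 it was 40 of 66.

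Of the E2F factors and their DP partners, which execute the G1/S switch, 8 of 10 had lower values, with a median of -0.14. It was -0.07 without WT replicate 1 and -0.22 without WT replicate 2, and 6 of 10 were lower without WT replicate 3. E2f1, an activator, read 1.34, 0.89 and 1.72 in WT and 1.35, 1.09 and 1.27 in KO (-0.08 ± 0.21 SE). E2f4, which works with p107 and p130 as a repressor, measured -0.16 ± 0.11 SE. E2f2 had the smallest p of this list, at -0.24 ± 0.10 SE (limma adjusted p = 0.414), and its groups did not overlap. Among 14 E2F target genes 12 had lower values, median -0.17, but 9 of 14 within slide 1. WT replicate 2 was itself low in these genes, with a median of -0.30 relative to the WT mean. The list's median difference was -0.33 without it and -0.09 without WT replicate 3. Tyms, the thymidylate synthase gene, measured -0.41 ± 0.16 SE (limma adjusted p = 0.399).

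Cdk2, the partner of E and A cyclins, read 0.62, 0.12 and 0.08 in WT and -0.25, 0.08 and -0.03 in KO, -0.34 ± 0.17 SE (limma adjusted p = 0.454). The nearest WT and KO arrays both read 0.08, and WT replicate 1 was the highest. Ccna2, its S phase cyclin, measured 0.08 ± 0.25 SE. Cdc25a, the phosphatase that activates Cdk2, measured -0.26 ± 0.11 SE (limma adjusted p = 0.407). In the list of S phase partners and activators, 6 of the 7 tested had lower values, against 51.7% of all genes. Cdc25a alone was lower at an unadjusted p under 0.05, against 5.24%. KO lay wholly below WT for 3 of the 7, Cdk2, Cdc25a and Cdc37, against 10.2%.

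The CDK inhibitors showed no common direction, with 3 of 5 tested genes higher and 2 lower. Cdkn1b, which encodes p27, was the steadiest of those named, at 3.16, 3.13 and 3.16 in WT and 3.22, 3.11 and 3.16 in KO (0.01 ± 0.077 SE). Cdkn2c, which encodes the Cdk4 and Cdk6 inhibitor p18, measured -0.33 ± 0.24 SE (limma adjusted p = 0.561). Cdkn2a and Cdkn2b were not well above background on all arrays of either genotype. Of the genes of protein turnover, 4 of 8 had lower values: Skp1a, a subunit of SCF ubiquitin ligases, at -0.25 ± 0.088 SE (limma adjusted p = 0.381), and Skp2, which directs p27 to them, at -0.37 ± 0.19 SE were among them, while Fbxw7, which directs cyclin E, measured 0.06 ± 0.08 SE.

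The MuvB core silences cell cycle genes together with p107 or p130, and with the partners encoded by Mybl2 and Foxm1 it activates them later in the cycle. Of 5 core genes and these partners, 6 of 7 had lower values, with a median of -0.08, or -0.23 without WT replicate 2. With the mean of a gene's probes 4 of 7 were lower, with a median of -0.02. Without KO replicate 2 it was also 4 of 7, with a median of -0.10. Rbbp4 of the core measured -0.19 ± 0.09 SE, Mybl2 0.07 ± 0.23 SE and Foxm1 -0.02 ± 0.20 SE. Proliferation markers showed no common lean, with 3 of 7 lower. Mki67 read 3.83, 3.1 and 3.83 in WT and 3.64, 3.36 and 3.65 in KO (-0.04 ± 0.21 SE), and Cdk1 measured -0.21 ± 0.19 SE. Without WT replicate 2, all 7 had lower values, with a median of -0.25, and within slide 1 only 1 did, with a median of 0.20.

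Upstream of the D cyclins, Myc, which encodes a growth regulator that promotes Ccnd2 and Cdk4 transcription, read 4.15, 3.68 and 3.46 in WT and 3.16, 3.64 and 3.06 in KO, with overlap (-0.48 ± 0.22 SE, limma adjusted p = 0.432). Etv5, an ERK target and not a cell cycle gene, had the smallest p of this list, at 0.69 ± 0.13 SE (limma adjusted p = 0.351), and its groups did not overlap. Of the 8 tested genes 4 were lower, Myc, Mycn, Egr1 and Fos, and 4 higher, Etv4, Etv5, Dusp6 and Spry2, and none passed. KO lay wholly above WT for 2 of the 8, Etv4 and Etv5, against 9.37% of all genes.

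**Figure D4:**
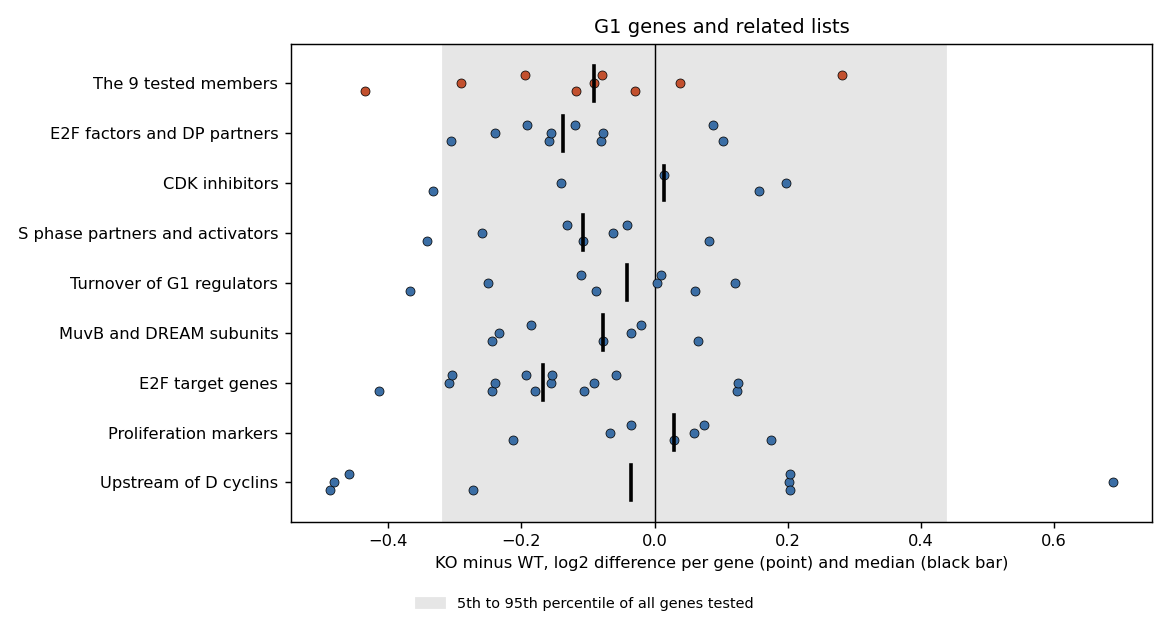
KO minus WT log2 difference of the 9 tested G1 genes (red) and of the genes of 8 related lists (blue), with the median of each list (black bar) and the middle 90% of all genes (grey). List medians lie between -0.17 and 0.03, and single genes reach from -0.49 to 0.69.

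Of 15 alternative fits, 4 (both filters, and slide or replicate as a block) leave a gene's difference as it is and bear only on its p. In the other 11, Cdk6 stayed between -0.52 and -0.25, Ccnd2 between -0.25 and -0.12, Cdk4 between -0.18 and -0.06, Rbl1 between -0.46 and -0.03 and Ccnd1 between 0.14 and 0.50. Those of Ccnd3, Ccne1, Rb1 and Rbl2 crossed 0 in at least 1 fit. The mean of a gene's probes could not move genes with 1 tested probe, Cdk6, Ccnd2 and Ccnd1 among them. The deposited values, the same intensities divided by 1 constant per array, gave -0.4346 for Cdk6, as the main fit did. No G1 gene passed in any of the 15 fits, where the smallest limma adjusted p was 0.264, for Cdk6 without KO replicate 2.

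**Figure D5:**
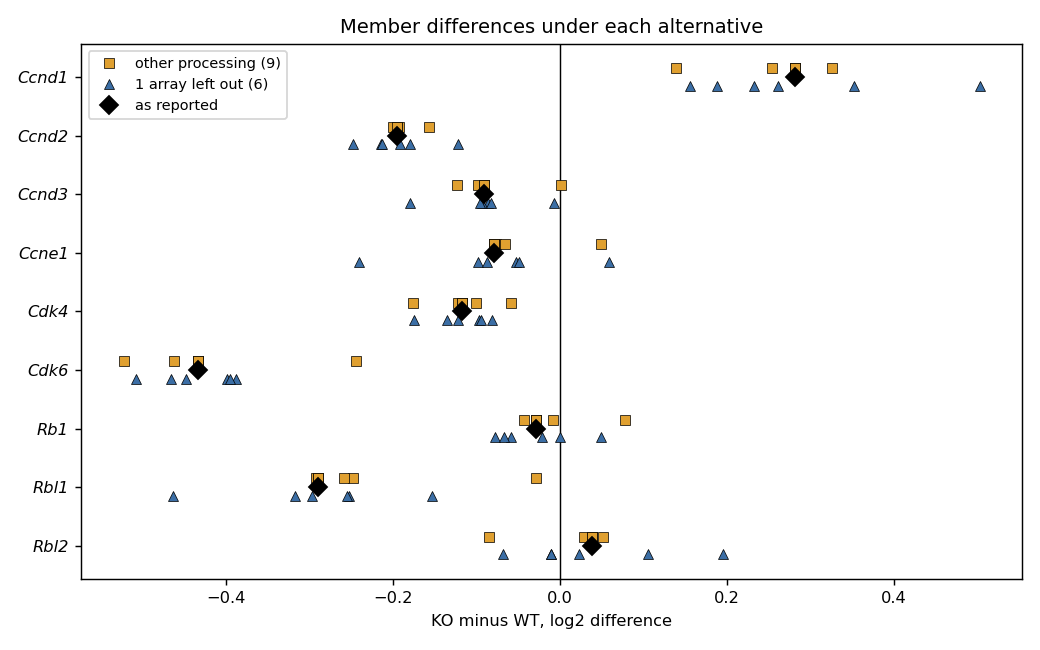
KO minus WT log2 difference of each tested G1 gene as reported (black), with 1 array left out (blue triangles) and under other processing (orange squares). Cdk6 lies below 0 in every fit shown and Ccnd1 above 0, while Rb1 and Rbl2 fall on both sides.

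Of the tested G1 genes, Ccnd1 had the widest range over the 6 arrays, 0.70 on the log2 scale. The 5 genes with the most similar course over the arrays, by the root mean square difference of centred log2 values, were Txnl1 (0.058), Syngr3 (0.082), Sox1 (0.083), Cpb2 (0.089) and Prdm1 (0.095). Ccnd1 itself varied by 0.27 on this measure. Syngr3 and Sox1 were dim, at -4.24 to -3.51 and -3.54 to -2.93. Syngr3 was well above background on 2 of the WT arrays and on all 3 KO arrays. The list is a description over 6 arrays.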

How the data were processed

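Each sample was hybridised to its own 1-colour Cy3 array. The authors' scanner files hold intensities read with Agilent Feature Extraction 10.7.3.1, corrected for background and for trends within the array, with surrogate values near background, per the file headers; no step between arrays is named there. The deposited value table holds the same intensity on a linear scale, divided by 1 constant per array (304 to 368); set against the scanner values it proved not to be centred, its column medians were 0.0638 to 0.075, and it was tried as an alternative. Control spots and the 92 to 155 spots per array marked as outliers were left out, spots of a probe were averaged as log2 values, and the 75th percentile was subtracted. A gene was represented by its probe with the highest mean, and kept when well above background on all 3 arrays of a genotype. Scanner signals of 19610 genes were fitted with limma 3.58.1 in R 4.3.3 (lmFit, eBayes; KO minus WT, no covariates; Benjamini-Hochberg over all genes, threshold 0.05). The fit was tested on simulated data. The number of arrays, 3 per genotype, limits the precision.

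The genes, the lists and the rule for genes named were chosen with earlier results of these data known. The rule names all 10 members, 10 fixed regulators, the gene of smallest p of each list, the gate genes, and the 5 nearest in course to the member of widest range. Alternatives covered quantile normalization, normexp (offset 50), the value table, filters, probe choice, slide, replicate number and each array left out. The comparison of probe pairs and its alternatives were added after the data had been seen. Some markers of other cell types are not reported here.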

Additional observations from a re-analysis of the deposited data

How the results depend on the processing

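No G1 gene passed in any of the 15 alternative fits, nor did a probe of one in the 9 run over probes (slide, replicate block and arrays left out), and the median of the 9 tested genes stayed between -0.18 and -0.06. Counts over all genes, 2 higher and 2 lower, were less stable. They were 1 higher and 0 lower under quantile normalization and also when a gene had to clear the background on all 6 arrays, 5 higher and 4 lower with normexp and also with the mean of a gene's probes, and 0 and 0 without a filter on dim probes and within slide 1. A slide block left 2 higher and 1 lower. A replicate block left 0 in each direction. Arrays of the same number correlated in their deviations at -0.025, 0.15 and 0.07. Such values cannot decide whether samples of the same number were prepared together, which the labels do not state. With each array left out, 0 to 1 genes were higher and 0 to 3 lower. Differences near 0 turned sign within slide 1 for Ccnd3 (0.00090), Ccne1 (0.049), Rb1 (0.078) and Rbl2 (-0.085). With single arrays left out the ranges were -0.24 to 0.058 for Ccne1, -0.078 to 0.048 for Rb1 and -0.069 to 0.20 for Rbl2. The Cdk6 difference was -0.25 with normexp; the cause of these moves was not tested. Dim probes limit Ccne2 and the second Ccne1 probe, which have no tested value.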
